A study of Mus musculus with 2 samples.

Results

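The Stk11, Cbarp and Cirbp locus is a gene-dense stretch of mouse chromosome 10 that held 11 of the 5107 thyroid hormone receptor binding sites (TRBS) called in brown adipose tissue. Its members were chosen by their measured position: a TRBS belonged to the locus when its summit, the point of highest ChIP signal, lay within 30 kb of the transcription start site (TSS) of Stk11, Cbarp or Cirbp. They were numbered 1 to 11 in the order of their coordinates on the GRCm38 (mm10) assembly, and the 30 kb limits together spanned chr10:80085803-80195985, or 110.2 kb. The locus was proposed because it held many TRBS, so that the counts of TRBS around its genes are given as a description and not as a finding.

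The material was brown adipose tissue of male C57BL/6J mice, 8-12 weeks old, in which a GS-tagged TRα1 receptor was expressed in brown adipocytes alone. The mice ate propylthiouracil, a drug that blocks the making of thyroid hormone, for 2 weeks and then received thyroid hormone over 24 h. One ChIP library, precipitated with an antibody for TRα after crosslinking with disuccinimidyl glutarate and formaldehyde, was compared with 1 input library of the same genotype, diet and hormone treatment. There was no replicate and no group without hormone was analysed here, so every value below describes 1 ChIP library. Because the receptor is a tagged form driven in one cell type, occupancy by the untagged receptor or in the other cells of the tissue was not measured apart. A list of peaks holds no expression, so the tissue label could not be set against marker genes. Whether any gene of the locus responded to the hormone could not be read from it either. The study also gathered RNA-seq of brown adipose tissue after hormone treatment, which was not used here.

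Thyroid hormone receptors are nuclear receptors that bind DNA mostly as a heterodimer with the retinoid X receptor (RXR). The preferred element, DR4, is a direct repeat of the half-site AGGTCA with a spacer of 4 bases. The order of the partners on it is fixed, with RXR first in the 5′ to 3′ direction. The 3 genes that define the locus have unrelated products. Stk11 encodes LKB1, a kinase that activates AMP-activated protein kinase (AMPK) and its relatives. Cbarp encodes a membrane protein that binds the beta subunits of voltage-gated calcium channels and lowers channel activity, and Cirbp encodes an RNA-binding protein induced by mild cold. Around them lie Sbno2, a homologue of the fly transcriptional coregulator strawberry notch; Atp5d, the delta subunit of the mitochondrial ATP synthase; Midn, a nuclear protein that delivers substrates to the proteasome; Efna2, an ephrin ligand of the cell surface; and 1600002K03Rik.

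The DR4 was searched on both strands of each whole peak as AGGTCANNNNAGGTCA, with at most 2 mismatches over the 12 bases of its half-sites. The study scored the genome with a probability matrix instead, which was not used here, so shares and counts of DR4 differ in definition from those of the study. It was found in 5 of the 11 TRBS, once in each. These sequences are shown because they are the matches to the receptor's own element inside the called peaks of the locus. Each is printed 5′ to 3′ on the strand of the element with 7 bases on either side, and capitals mark the pair of half-sites.
TRBS 2, minus strand, chr10:80094231-80094246: gctctggGAGTCAgcgcAGGTCAgagctgc
TRBS 3, plus strand, chr10:80104281-80104296: tagtcccAGGTCAcctaAGGAAAggcatgg
TRBS 7, minus strand, chr10:80147652-80147667: gtcccagAAGTCAgctcAGGTCAtcagtgg
TRBS 10, plus strand, chr10:80159514-80159529: atgtcccAGGGCAcctcAGGTCTggccctt
TRBS 11, plus strand, chr10:80160997-80161012: cagaaagAGGTCActacGGGTCAtggcttc

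In the notation used here the consensus base comes first, then the position counted from 1 at the 5′ end of the 16-base element, then the base at the site. The elements of TRBS 11 and TRBS 7 had 1 mismatch each, A11G and G2A, and the other 3 had 2. The element of TRBS 11 was the only DR4 in which both half-sites had the form RGGTCA, where R is A or G, which nuclear receptors of this class are known to accept. In TRBS 2 both mismatches, A1G and G2A, lay in the 5′ half-site and the downstream half-site was the perfect AGGTCA, and in TRBS 7 the downstream half-site was again perfect. TRBS 3 had the reverse layout, with a perfect 5′ half-site and T14A and C15A in the downstream one. TRBS 10 had a mismatch in each half-site, T4G and A16T. No 2 of the 5 elements had the same 4 spacer bases.

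Exact pairs of RGGTCA in other arrangements were searched as direct, inverted and everted repeats with spacers of 0 to 10 bases. Besides the DR4 of TRBS 11, there were 3. They are shown because they are the only exact receptor-type pairs in TRBS 1, TRBS 4 and TRBS 7, and capitals again mark the half-sites.
TRBS 1, everted repeat with 8 spacer bases, chr10:80086606-80086625, plus strand: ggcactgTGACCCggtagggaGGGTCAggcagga
TRBS 4, direct repeat with 1 spacer base, chr10:80115240-80115252, minus strand: gggggagGGGTCAaAGGTCAaaaagta
TRBS 7, direct repeat with 3 spacer bases, chr10:80146676-80146690, plus strand: gccacagAGGTCActgAGGTCAtcgggct
The arrangement in TRBS 4, a direct repeat with 1 spacer base, is the one known for PPAR and RXR heterodimers, and the one in TRBS 7 is known for the vitamin D receptor. Taken singly, each of these arrangements was rare over the whole list. In all, 33 arrangements were searched and the share of TRBS with any of them is not given here, so no rarity of the locus is read from these values. Exact everted repeats with 8 spacer bases were found in 18 TRBS (0.352%), direct repeats with 1 in 25 (0.490%), direct repeats with 3 in 17 (0.333%) and exact DR4 pairs in 102 (2.00%). A match of letters is a description of the sequence and does not show which protein was bound.

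The sequence around the summit is given for the strongest TRBS, for the one in a promoter of the 3 genes and for the strongest one near Cirbp. Each line holds 151 bases of the plus strand centred on the summit, and capitals mark exact half-sites on either strand and the half-sites of the DR4.
TRBS 2, chr10:80094220-80094370: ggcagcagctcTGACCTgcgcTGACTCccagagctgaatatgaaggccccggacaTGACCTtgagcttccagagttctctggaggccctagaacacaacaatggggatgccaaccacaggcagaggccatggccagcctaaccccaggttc
TRBS 4, chr10:80115311-80115461: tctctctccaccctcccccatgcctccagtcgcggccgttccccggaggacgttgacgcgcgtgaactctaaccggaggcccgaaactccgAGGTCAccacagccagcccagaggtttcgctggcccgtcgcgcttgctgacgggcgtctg
TRBS 11, chr10:80160941-80161091: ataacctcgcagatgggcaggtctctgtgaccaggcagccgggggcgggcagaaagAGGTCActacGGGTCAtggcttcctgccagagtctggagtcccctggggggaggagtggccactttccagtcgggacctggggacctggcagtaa
In TRBS 2 the DR4 lies on the minus strand and therefore reads as TGACCTgcgcTGACTC here, with a further half-site 18 bp from the summit. The window of TRBS 4 holds a single half-site, 18 bp from the summit, and many CG dinucleotides. That of TRBS 11 holds the DR4 close to the centre and a GC box, GGGCGG, 30 bp from the summit.

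Each TRBS is described by the ChIP fragments stacked at its summit, by the input background there on the scale of the ChIP library, and by the fold of one over the other. The fold is the deposited value, to which 1 fragment was added above and below the division. The fragments and the background were recovered from the deposited fold and p-value, and for all 11 TRBS the solution was the only one. Intervals of fragments are exact 95% Poisson intervals and cover counting error alone, and the sequencing depth of both libraries is unknown here because the list carries no read totals. The 11 summits held 8 to 53 fragments with a median of 14, against a median of 17 over the list, and 4 of the 11 were above that value. The median fold was 8.97 against 9.83 over the list, and the median background was 0.672 at the locus and 0.672 in the list. The quartiles of the list were 11 and 27 fragments, and summits of the locus lay below, between and above them. TRBS 2 had the most fragments and TRBS 9 the fewest, although the intervals of the weaker TRBS are too wide to rank them.

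**Figure D1:**
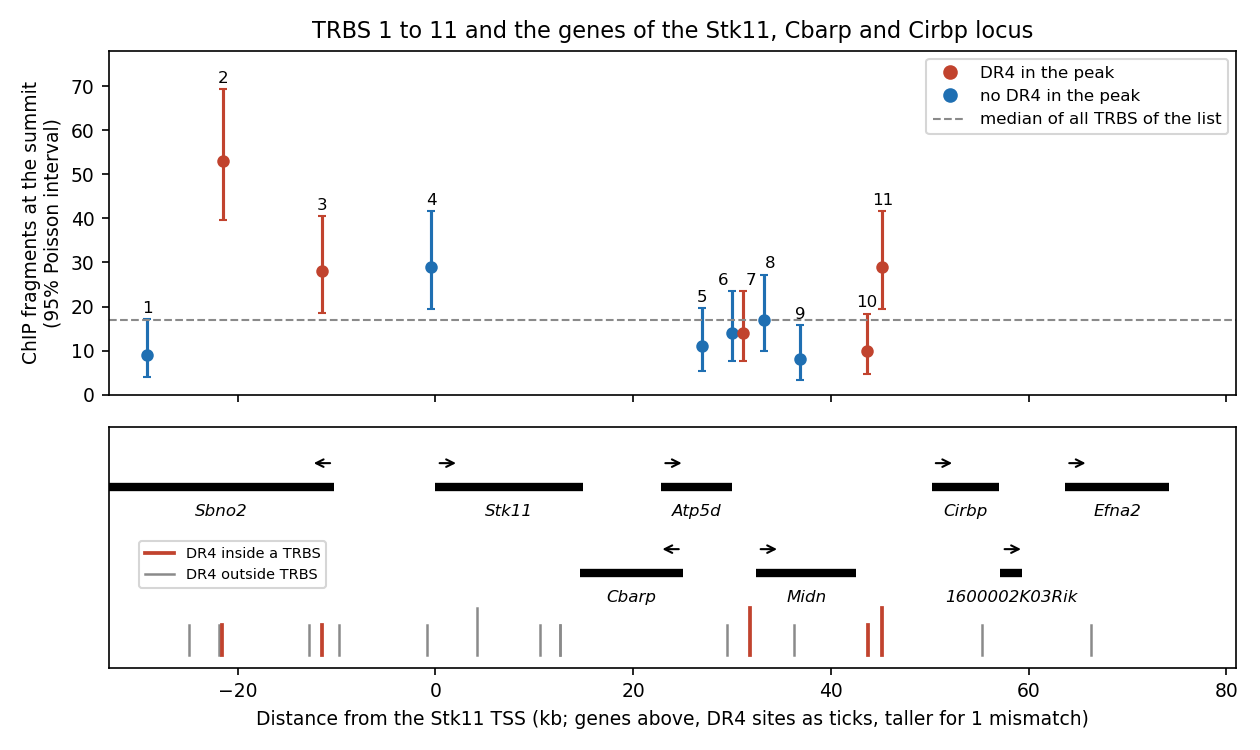
Map of the locus, with distance from the Stk11 TSS in kb on the horizontal axis. The upper panel gives the ChIP fragments at each of the 11 summits with 95% Poisson intervals and the list median of 17 as a dashed line; the lower panel shows gene bodies as bars, the direction of transcription as arrows, and the 18 DR4 sites as ticks, taller for 1 mismatch and red for the 5 inside a TRBS. TRBS 2 reaches 53 fragments, and no summit lies in the 27332 bp between TRBS 4 and TRBS 5.

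TRBS 1 to 3 lay upstream of Stk11 inside the neighbouring gene Sbno2, which is transcribed towards lower coordinates. TRBS 2 (chr10:80093883-80094788) was the strongest of the locus, with 53 fragments (39.7 to 69.3) over a background of 0.840 and a fold of 29.3. It had more fragments than 93.3% of the TRBS of the list. Its summit lay in intron 1 of the 31 introns of the Sbno2 transcript ENSMUST00000042771.7, 21508 bp upstream of the Stk11 TSS, and its DR4 was 56 bp from the summit.

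TRBS 3 (chr10:80104152-80104684) had 28 fragments (18.6 to 40.5), a background of 0.605 and a fold of 18.1. Its summit lay in the 5′ UTR of Sbno2, 81 bp downstream of the start of the transcript ENSMUST00000219260.1 and 11514 bp upstream of the Stk11 TSS. The outermost start annotated for Sbno2 lies further out, which is why the summit was counted as 5′ UTR and not as promoter. It was the only summit of the locus that coincided with a DR4, at a distance of 0 bp, and repeat sequence made up 29.5% of the peak.

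TRBS 1 (chr10:80086511-80086804) had 9 fragments (4.12 to 17.1) and a fold of 6.58, in the same Sbno2 intron as TRBS 2. It was the member closest to the limit, at 29153 bp from the Stk11 TSS and had a score of 62. The nearest TRBS left out on that side, chr10:80073202-80073572, also lay in a Sbno2 intron. It had 16 fragments and a fold of 10.2, and its summit was 42431 bp from the Stk11 TSS. On the other side the nearest one left out was in an intron of Apc2, 136.6 kb from the Cirbp TSS, with 14 fragments. The limit therefore passed through a gap of 13.3 kb between summits on one side and of 141.6 kb on the other.

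TRBS 4 (chr10:80115206-80115527) was the only TRBS in the promoter of one of the 3 genes, with its summit 417 bp upstream of the Stk11 TSS. A promoter was counted from 1000 bp before a TSS to 100 bp after it. The shorter promoter windows taken from RefSeq for the 3 genes, that of Stk11 being chr10:80115545-80115844, overlapped no TRBS. It had 29 fragments (19.4 to 41.6), as many as TRBS 11, but a fold of only 8.02. The background was 2.74, the highest of the locus and above that of 98.8% of the list. The observed to expected ratio of CpG dinucleotides was 0.755. Over the 370 promoter TRBS of the list the medians were 17.5 fragments, a background of 0.966 and a CpG ratio of 0.683, and whether the high input at TRBS 4 bears on its call was not tested. The peak held 3 half-sites and the direct repeat shown above, 140 bp from the summit, but no DR4.

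No summit was found inside the bodies of Stk11, Cbarp or Cirbp. The gap between TRBS 4 and TRBS 5 spanned 27332 bp and contained all of Stk11 and Cbarp. The next 5 TRBS lay within the genes beyond the Cbarp start or just outside them, in a run from TRBS 5 to TRBS 9 that covered Atp5d and Midn.

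TRBS 5 (chr10:80142535-80142813) had 11 fragments (5.49 to 19.7) and a fold of 7.18. It was the TRBS nearest to Cbarp, 1883 bp upstream of its outermost start and 3353 and 5331 bp upstream of the starts of its protein-coding transcripts, and at the same time lay in intron 1 of 3 of Atp5d, 403 bp downstream of the start of ENSMUST00000003156.14. It was within 30 kb of all 3 genes that define the locus. The other TRBS of which this was true was TRBS 6 (chr10:80145600-80146182), in the 3′ UTR of Atp5d, with 14 fragments (7.65 to 23.5) and a fold of 8.97. Its summit was 29946 bp from the Stk11 TSS, close to the limit, 4914 bp from that of Cbarp and 20236 bp from that of Cirbp. Neither contained a DR4, while TRBS 5 held 3 half-sites and TRBS 6 held 2.

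TRBS 7 (chr10:80146545-80147865) was the widest peak of the locus, with 1321 bp against a list median of 424 bp, and it was wider than 99.2% of the list. It had 14 fragments (7.65 to 23.5) and a fold of 9.70. The summit was intergenic in GENCODE, 1383 bp upstream of the Midn TSS, although RefSeq placed the same position inside Midn. The peak carried 8 of the 28 half-sites of the locus. Its DR4 was 770 bp from the summit, in the Midn promoter, which was the longest such distance of the 5. The direct repeat with 3 spacer bases was 206 bp from the summit on the other side.

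TRBS 8 (chr10:80148736-80149152) lay in intron 1 of 8 of Midn, 726 bp downstream of its TSS, with 17 fragments (9.90 to 27.2) and a fold of 11.3. It was the most GC-rich TRBS of the locus at 66.4%, with a CpG ratio of 0.832, and it contained no half-site at all. GC boxes were found at 30 and 72 bp from its summit. TRBS 9 (chr10:80152474-80153104), in intron 4 of Midn, had 8 fragments (3.45 to 15.8) over a background of 1.52. Its fold of 3.57 was the lowest of the locus, and only 0.627% of the list had a lower one.

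The last pair lay between Midn and Cirbp. TRBS 11 (chr10:80160797-80161172) was the strongest TRBS near Cirbp, with 29 fragments (19.4 to 41.6), a background of 0.913 and a fold of 15.7. Its summit was 4969 bp upstream of the outermost Cirbp start and 6762 bp upstream of the start of the protein-coding transcript ENSMUST00000105365.8. The DR4 with A11G was 12 bp from the summit. TRBS 10 (chr10:80159286-80159568) was 1558 bp away from it and 6527 bp upstream of Cirbp, with 10 fragments (4.80 to 18.4), a background of 1.43 and a fold of 4.53. Its DR4 lay 64 bp from the summit, and the peak held no exact half-site.

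**Figure D2:**
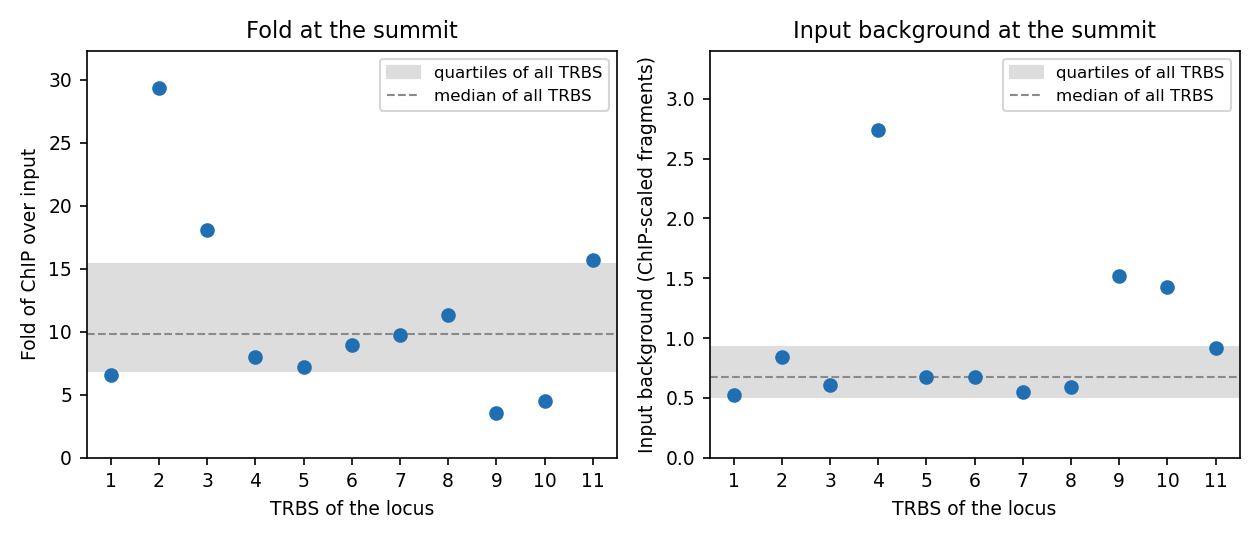
Deposited fold of ChIP over input (left, linear axis) and input background in fragments on the ChIP scale (right) at the summits of TRBS 1 to 11. Points are single values from 1 ChIP and 1 input library, the grey band runs from the lower to the upper quartile of the list and the dashed line is its median. TRBS 2, 3 and 11, with folds of 29.3, 18.1 and 15.7, stand above the band; TRBS 4, 9 and 10 have backgrounds of 2.74, 1.52 and 1.43 and folds below the list median.

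By gene part, 5 of the 11 summits were intronic, 3 intergenic, and 1 each lay in a promoter, a 5′ UTR and a 3′ UTR. None lay in a coding exon. Over the whole list 48.9% of summits were intronic, 38.2% intergenic, 7.24% in promoters, 2.06% in a 5′ UTR and 1.78% in a 3′ UTR. These shares are given for comparison only, since the locus has 11 summits. Of the intronic summits, 2 were in Sbno2, 2 in Midn and 1 in Atp5d. A score of at least 60, the limit named in the study's methods, was reached by 9 of the 11, against 82.4% of the list, and the exceptions were TRBS 9 and 10 with scores of 15 and 32. The score is 10 times the −log10 of the q-value.

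Around each gene, the counts depended on where in the stretch it lay. Within 30 kb of its TSS, Stk11 had 6 TRBS, 4 upstream and 2 downstream of the start. Cbarp, transcribed in the opposite direction, had 8, of which 7 were upstream. Cirbp had 7, all upstream. Because the genes lie close together, most TRBS were counted for more than one of them: 3 of the 11 were within 30 kb of 1 of the 3 genes, 6 of 2 genes and 2 of all 3. Of the other genes of the window, Atp5d had 8, Midn 7, 1600002K03Rik 6, Sbno2 4 and Efna2 3. Over all protein-coding genes, 16.7% had a TRBS within 30 kb and 0.119% had at least 6. Nothing is read from the 6 genes of the locus with at least 6 TRBS, since they share the TRBS that the rule chose.

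With the outermost start of each gene as its TSS, the nearest TSS to a summit was often that of another gene. It was that of Midn for TRBS 6 to 9, of Sbno2 for TRBS 1 to 3, of Cirbp for TRBS 10 and 11, of Stk11 for TRBS 4 and of Cbarp for TRBS 5. Among the starts of protein-coding transcripts, however, the one nearest to TRBS 5 was an Atp5d start at 348 bp. The window contained 8 protein-coding genes. The median summit had 5 protein-coding TSS within 30 kb, with a range of 2 to 6. The median was 1 over the list, and around a protein-coding TSS of the genome it was 2, the TSS itself included. The stretch was chosen as gene-dense and each member had to lie near a TSS, so this difference was set by the rule and nothing is read from it. Which of these genes a TRBS acts on was not measured. Summits of the locus were 1140 to 27332 bp apart, with a median gap of 5230 bp. The list median was 105895 bp, and short gaps too follow from choosing TRBS around 3 neighbouring genes. The closest pair was TRBS 6 and 7. The peaks covered 5945 bp, or 5.40% of the window.

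The sequence of the TRBS was GC-rich. The GC content was 52.5% to 66.4% with a median of 59.6%, above the list median of 51.1% in all 11. The CpG ratio was highest in TRBS at gene starts. TRBS 4, 5 and 8, each within 1 kb of a start of Stk11, Atp5d or Midn, had ratios of 0.755, 0.515 and 0.832, and the other 8 had 0.116 to 0.392. The list median was 0.208. TRBS 3, although 81 bp from a start of Sbno2, had 0.136.

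A DR4 was found in 5 of the 11 TRBS, or 45.5% (95% Wilson interval 21.3 to 72.0%), against 32.0% of the list. With 11 TRBS the interval is wide, and the shares are given side by side without a test. Whole peaks were searched, and a wider peak gives more room for a match, which was not taken into account. In 201 bp centred on the summit 4 of the 11 held a DR4, against 27.1% of the list. The 5 TRBS with a DR4 had 53, 28, 14, 10 and 29 fragments, with a median of 28, and the 6 without one had 9, 29, 11, 14, 17 and 8, with a median of 12.5. The 2 sets overlapped: TRBS 4, without a DR4, equalled TRBS 11, and TRBS 10, with a DR4, was among the 3 lowest. Half-sites were present in 9 of the 11 (81.8%) against 72.5% of the list, and the density was 4.71 per kb of peak against 2.95. TRBS 8 and 10 were the ones without an exact half-site.

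**Figure D3:**
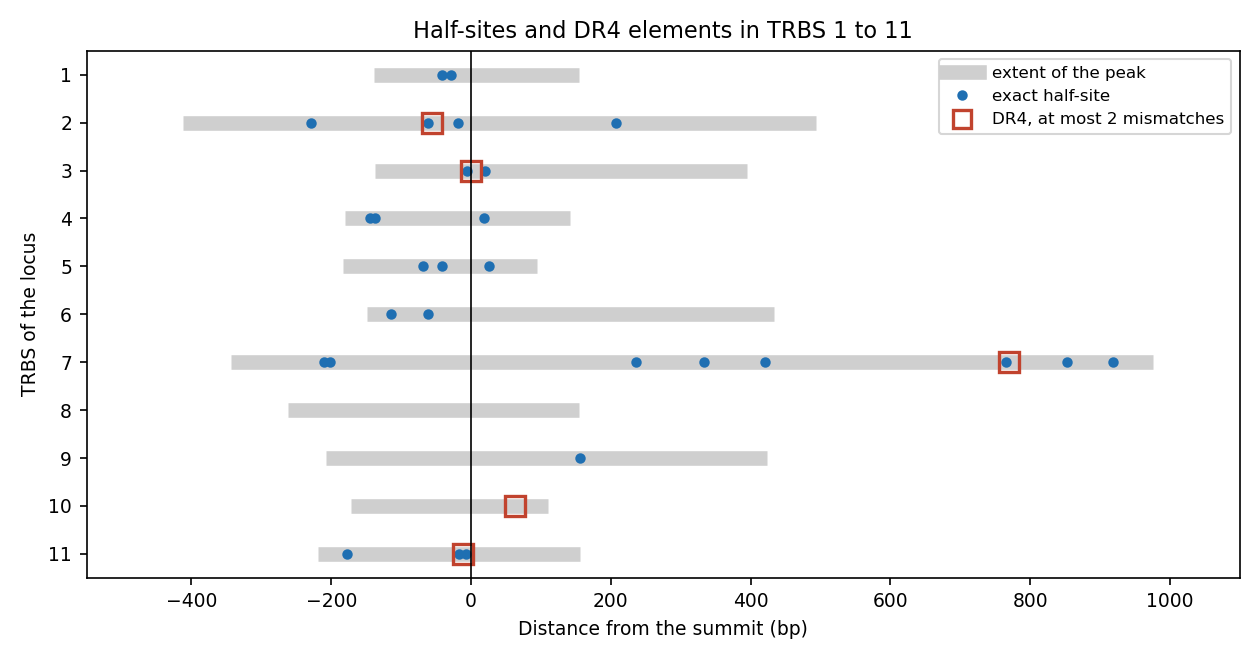
Positions of exact half-sites (RGGTCA, blue points) and DR4 elements (red squares) in TRBS 1 to 11, in bp from the summit, which is the vertical line. Grey bars show the extent of each peak. The DR4 of TRBS 2, 3, 10 and 11 lies 0 to 64 bp from the summit and that of TRBS 7 lies 770 bp away.

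The window as a whole contained 18 DR4 sites, 3 with 1 mismatch and 15 with 2, and no perfect site. Of these, 5 lay in a TRBS, or 27.8% (95% Wilson interval 12.5 to 50.9%), whereas 0.711% of the 290078 sites of the genome did. The window was chosen for its TRBS, so the shares are given side by side and were not tested. The other 13 sites were not inside a called peak. The body of Stk11 held 4 of them, 2 of which overlap, and no TRBS was called in the gene. Nothing is read from this, since only 0.711% of the sites of the genome lay in a TRBS. The pair below shows the site with the fewest mismatches in the Stk11 body and the one nearest to TRBS 4, with capitals at the half-sites.
Stk11 intron, plus strand, chr10:80120005-80120020: tagttgcAGGTCAtgagTGGTCAgctgtgc
Stk11 promoter, plus strand, chr10:80114904-80114919: ctgcagcAGGTGAgttgAGGCCAgcggcga
The intronic site had the single change A11T, at the same position where TRBS 11 has A11G, and it lay 4626 bp from the nearest summit. The promoter site had C5G and T14C and lay 474 bp from the summit of TRBS 4, outside the peak. The other sites in Stk11 were in a coding exon, at chr10:80126350-80126365, and in an intron, where a pair overlapped by 6 bases at chr10:80128355-80128380. Cbarp contained none. Cirbp contained 1, in its 3′ UTR, 10122 bp from the nearest summit. A site outside a peak is one at which no enrichment was called in this library, and occupancy below the calling limit could not be seen.

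Motifs of other factors were searched on both strands in 201 bp centred on each summit. The GC box GGGCGG was found in 3 of the 11, TRBS 7, 8 and 11, against 11.3% of the list and 3.67% of flanking windows of the same length. The list and the flanks were not matched for GC content, which was above the list median in all 11. The DR1 element of PPAR, AGGTCANAGGTCA with at most 2 mismatches, was found in TRBS 11 alone, as ATGTCAGAGGTCT at chr10:80161100-80161112. It shared no base with the DR4 of that TRBS, and 8.64% of the list and 3.25% of flanks held such a match. The exact DR1 pair of TRBS 4 lay outside this window. No match was found in any of the 11 for EBF (TCCCNNGGGA), C/EBP (TTGCGCAA, at most 1 mismatch), NF1 (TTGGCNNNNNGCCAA, at most 1 mismatch), SP/KLF (GGGGCGGGG, which contains the GC box), the E-box CACGTG, AP-1 (TGANTCA), CRE (TGACGTCA), ETS (CCGGAAGT) or NRF1. In the list these were held by 2.55%, 6.64%, 1.39%, 2.86%, 4.44%, 7.23%, 0.215%, 0.431% and 0.0979% of TRBS in that order.

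Among all protein-coding genes, those with the most TRBS within 30 kb and a median fold of at least 5 were Atp5d and Cbarp with 8, followed by Cirbp, Midn, Hr, Nudt18 and Tob2 with 7. Hr encodes a corepressor long known as a thyroid hormone target in brain, and Nudt18 lies next to it. Their shared locus had 7 TRBS with 8 to 59 fragments and medians of 41 fragments and a fold of 26.6, with 3 in promoters and 5 with a DR4. Tob2, an antiproliferative protein, had 7 TRBS with 7 to 43 fragments and medians of 26 fragments and a fold of 11.5, with none in a promoter and 1 with a DR4. Stk11, Cbarp and Cirbp together, counted around 3 TSS, had more TRBS than Hr and Nudt18 around 2 or Tob2 around 1, but lower medians, 14 fragments and a fold of 8.97. Counts of this kind are descriptions over 1 library. A further 9 genes with at least 8 TRBS were left out because their median fold was under 5.

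**Figure D4:**
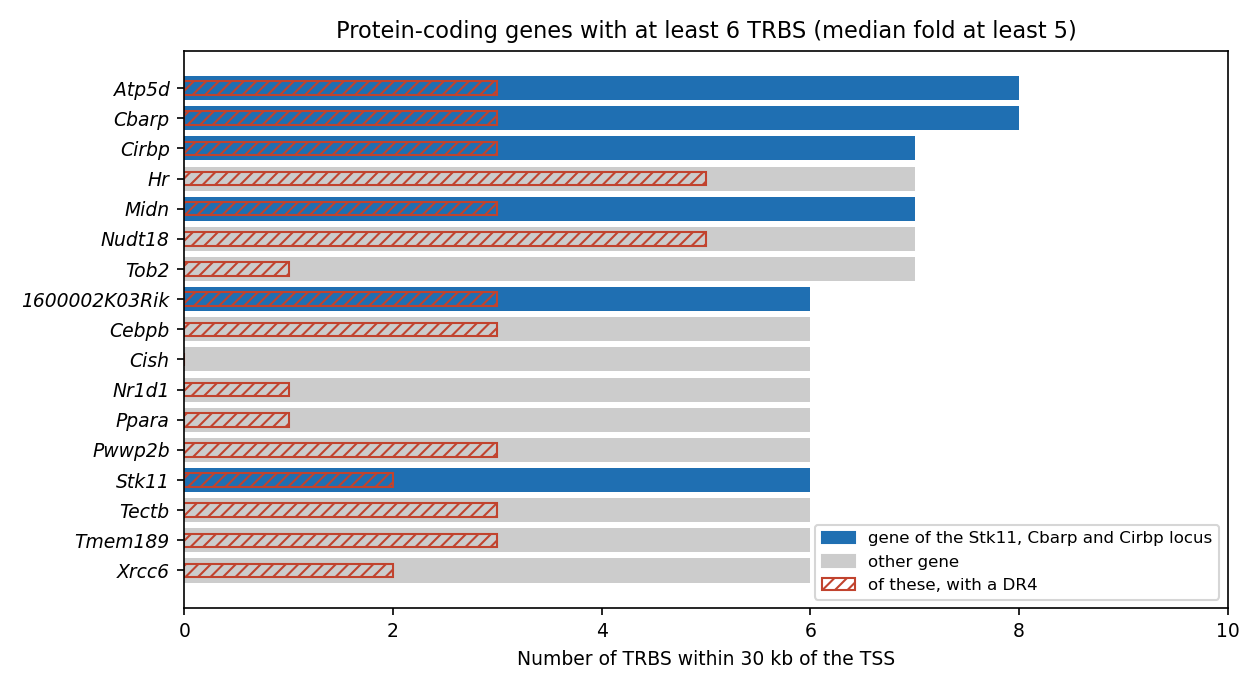
Number of TRBS within 30 kb of the TSS for the 17 protein-coding genes with at least 6 TRBS and a median fold of at least 5, with the TRBS holding a DR4 hatched. Blue bars are genes of the locus, which share TRBS with each other; Atp5d and Cbarp have 8, Cirbp and Midn 7, and 1600002K03Rik and Stk11 6.

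The partners of the 3 genes were looked up in lists that hold the genes of each pathway. In the LKB1-AMPK list, which contains the LKB1 complex, the AMPK subunits, related kinases and substrates, 13 of 35 genes (37.1%, 95% Wilson interval 23.2 to 53.7%) had a TRBS within 30 kb, beside 16.7% of all protein-coding genes, and 4 had more than 1. Mark2, a kinase that LKB1 activates, had the one with the most fragments, 55 (41.4 to 71.6), 8337 bp upstream of its TSS at chr19:7349991-7350681. Stk11 had the 53 fragments (39.7 to 69.3) of TRBS 2. Mlxipl, the glucose-sensing transcription factor ChREBP, had 3 TRBS, the strongest with 52 fragments (38.8 to 68.2). These intervals overlap almost wholly, so the order of these genes is not read. Sik1, another kinase activated by LKB1, had 43 fragments at a TRBS with a DR4, 6436 bp upstream. Stradb, a pseudokinase partner of LKB1, had 34 fragments at a TRBS with a DR4, and Prkaa1, a catalytic subunit of AMPK, had 33 in an intron, 5448 bp downstream of its TSS. The other 22 genes of the list had none.

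In the list of voltage-gated calcium channel genes, Cbarp was the only one of 16 with a TRBS within 30 kb (6.25%, 95% Wilson interval 1.11 to 28.3%). The other 15 were genes of pore-forming, beta and alpha-2-delta subunits, and the genes of T-type channels were not in the list. In the list of temperature-responsive genes 3 of 9 had one (33.3%, interval 12.1 to 64.6%): Cirbp, Srsf10 and Hsph1. The share of all protein-coding genes was 16.7%, as above. Srsf10, a splicing factor, had 57 fragments (43.2 to 73.9) at a TRBS with a DR4, 8043 bp upstream, and Hsph1, a chaperone of the heat shock response, had 12. Rbm3, the cold-inducible protein most like Cirbp, had none. These lists are short and Stk11, Cbarp and Cirbp were put in them as members of the locus, so that the shares of all 3 lists are descriptions, with intervals for counting error only, and were not tested against the share of all genes.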

How the data were processed

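The authors aligned paired-end reads to GRCm38 (mm10) and called peaks with the input library as control; the submitters' processing notes name Bowtie2 2.3.2.2 and MACS2 2.1.1.20160309.6. The deposited list held 5107 peaks, each with the authors' score (10 times the −log10 q-value, rounded down), the deposited fold or ratio of ChIP over input at the summit, and the −log10 p-value as deposited. Peaks under a score of 60, which the study's methods left out, were still in the list and were kept. Starts were read as counted from 0, as is usual for this format, and converted to 1-based coordinates. The list does not state this, so peak starts, summits and distances from them may be off by 1 base; positions of sequence elements come from the genome and are not affected.

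Fragments at a summit were taken as the whole number that, with the fold (pseudocount 1), gave the deposited −log10 p within 0.0005 under a Poisson model. This succeeded for 5090 peaks (99.7%) and was unique for 5052. Genes and transcripts came from GENCODE M21, with the outermost start of each gene as its TSS, and gene part was set in the order promoter, 5′ UTR, 3′ UTR, coding exon, intron, intergenic. The DR4 search and the recovery of fragments were tested on simulated data. Python 3.11.15, numpy 2.4.6, pandas 2.3.3 and scipy 1.17.1 were used. With 1 ChIP library no test was made. Shares carry 95% Wilson intervals and fragments exact Poisson intervals, which cover counting error only, since PCR copies of 1 molecule could not be told apart.

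Named genes were those holding a summit or the TSS nearest to one, those with a TSS within 30 kb of a summit, up to 10 genes with the most TRBS (median fold of at least 5) and at most 6 genes per list with the most fragments; Apc2 and Gpx4, which hold the neighbouring TRBS, and Rbm3 were named after their values were seen. Members and lists were chosen with earlier results of these data known. Alternatives changed the distance limit, the score filter, the position and merging of peaks, the TSS, the mismatches and length searched, and the order of gene parts.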

Additional observations from a re-analysis of the deposited data

How the results depend on the processing

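Of 51 values recomputed under another setting, 37 kept within 1.5 times of the reported count, or within the interval, and 14 did not. With a limit of 10 kb the locus held 7 TRBS in place of 11, and Stk11 had 1, Cbarp 4 and Cirbp 2 in place of 6, 8 and 7. With 100 kb the counts per gene were 14, 14 and 12, and 33 genes of the 3 lists had a TRBS in place of 17; a wider limit can only add TRBS. With the score filter at 100 the locus held 7 TRBS. With at most 1 mismatch 2 TRBS held a DR4 and 2 sites lay in a TRBS, in place of 5 each. With at most 3 mismatches 15 sites lay in a TRBS. The window held 3, 18 and 144 sites with at most 1, 2 and 3 mismatches. With promoters placed at the starts of the protein-coding transcripts of the GENCODE basic set, an alternative chosen after seeing the data like the fold of at least 5, 2 summits were in a promoter and 0 in a 5′ UTR, because TRBS 3 moved to the start of Sbno2. No paired analysis was possible because the series has 1 ChIP and 1 input library. Peaks with 8 to 17 fragments, which are 7 of the 11, have intervals too wide to be ranked among themselves, and TRBS 9 and 10 are lost when the score must reach 60.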

Other observations

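Beyond the 30 kb limit, the next 3 TRBS within 100 kb all lay on the side of Sbno2. In Gpx4, which encodes the glutathione peroxidase that reduces lipid peroxides in membranes, 1 TRBS lay in an intron (chr10:80051532-80052578) with 21 fragments (13.0 to 32.1), a fold of 11.5 and 1 DR4, and its summit was 63.4 kb from the Stk11 TSS. Another lay in the 5′ UTR of Gpx4 (chr10:80053541-80053911), with 9 fragments (4.12 to 17.1), a fold of 3.54 and a score of 16. The third was the TRBS with 16 fragments in the Sbno2 intron, so that Sbno2 held 4 summits in all. On the side of Cirbp and Efna2 no further TRBS was called within 100 kb.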
